A study of Mus musculus with 10 samples.

Results

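Trem2 and 9 genes that are reported together with it in lipid-associated macrophages were followed in whole-liver RNA of male mice. The 10 genes are Trem2, Gpnmb, Cd9, Lgals3, Cd63, Fabp5, Cd68, Itgax, Mmp12 and Ms4a7, out of 24537 gene symbols in the count table, and all 10 were detected well enough to be among the 13909 genes tested. They were picked by name, because Trem2 was higher in old than in young livers of these same samples, so their difference between old and young livers is given below as a description. Counts of calls among them in those comparisons are printed beside the share over all genes and support nothing.

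Lipid-associated macrophages are macrophages that gather around lipid-laden or dying cells in fatty liver, obese fat tissue and atherosclerotic plaques. TREM2 is a surface receptor for lipids, lipoproteins and cell debris. It has no signalling tail of its own and signals through the adaptor TYROBP (DAP12), which recruits the kinase SYK, and the programme it supports includes uptake of lipid, its digestion in lysosomes and its export.

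The livers of 3 groups were sequenced. All mice received an adeno-associated virus of serotype 8 (AAV8) carrying the small Cas9 of Staphylococcus aureus under the hepatocyte promoter TBG, together with a U6-driven guide RNA. The young controls (n = 3 livers, age 9 months, virus given at 7 months) and the old controls (n = 3, age 25 months, virus given at 23 months) received a guide to Rosa26, a locus used as a neutral target. The old knockouts (n = 4, age 25 months, virus given at 23 months) received a guide to Cd44, which encodes a receptor for hyaluronan and other matrix molecules. Replicates 1 and 2 of the knockouts carried guide 4, and replicates 3 and 4 carried guide 2. Strain was not given in the labels, and replicate numbers only name a liver. Because TBG limits the editing to hepatocytes, macrophages were not the intended target of the knockout.

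Libraries held between 15821198 and 21710228 counts, so that a floor of 3 counts equals 0.131 to 0.198 CPM, the unit of counts scaled to library size that is used below. The targeted gene did not separate the groups in whole liver: Cd44 was at 10.1 to 16.6 CPM in the young controls, 14.2 to 30.0 in the old controls and 13.1 to 29.0 in the livers labelled knockout (knockout against old control log2 fold change -0.25, SE 0.30, edgeR adjusted p = 0.896). Each direction given for the knockout therefore rests on the labels. Old control replicate 2 stood apart from the other livers. Its summed level over 14 pan-macrophage genes was 1782 CPM, against 538.5 and 938.4 CPM in the other old controls, 531 to 993.9 in the knockouts and 293.9 to 409.2 in the young controls. It was also the highest liver for the summed monocyte, dendritic cell, neutrophil, platelet, and T and NK cell markers, and the main results that rest on it are given with and without it. The labels do not say whether libraries came from separate mice or which were prepared together, so p-values measure only the spread between these libraries. The library name of old control replicate 3 lies outside the run of the other names, which no label calls a batch, and without that liver 5327 genes were called with age in place of 3172.

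Trem2 (GRCm38 chromosome 17, 48346401 to 48354147, plus strand) was close to the detection limit in young livers and clearly detected in every old liver. It was at 0.428, 0.462 and 0.634 CPM in young control replicates 1 to 3, which is 7, 7 and 10 counts. The old controls held 2.90, 35.9 and 2.05 CPM, or 59, 788 and 43 counts. In the knockout livers the levels were 1.45 and 6.50 (guide 4) and 1.79 and 3.27 (guide 2). All 7 old livers thus lay above all 3 young ones, and the lowest old liver, knockout replicate 1, was 2.29 times the highest young liver. Old control replicate 2 was 14.5 times the median of the other 6 old livers. Group means were 0.508 ± 0.11 CPM (SD, n = 3), 13.6 ± 19.3 (n = 3) and 3.25 ± 2.30 (n = 4), so the SD of the old controls exceeded their mean. The old controls were 26.8 times the young mean with every liver and 4.87 times without old control replicate 2. On the log2 scale the fitted difference was 4.73 (SE 1.16) with it and 2.27 without it. In whole liver, fewer cells of a type and less RNA per cell cannot be told apart, here or for any gene below.

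**Figure D1:**
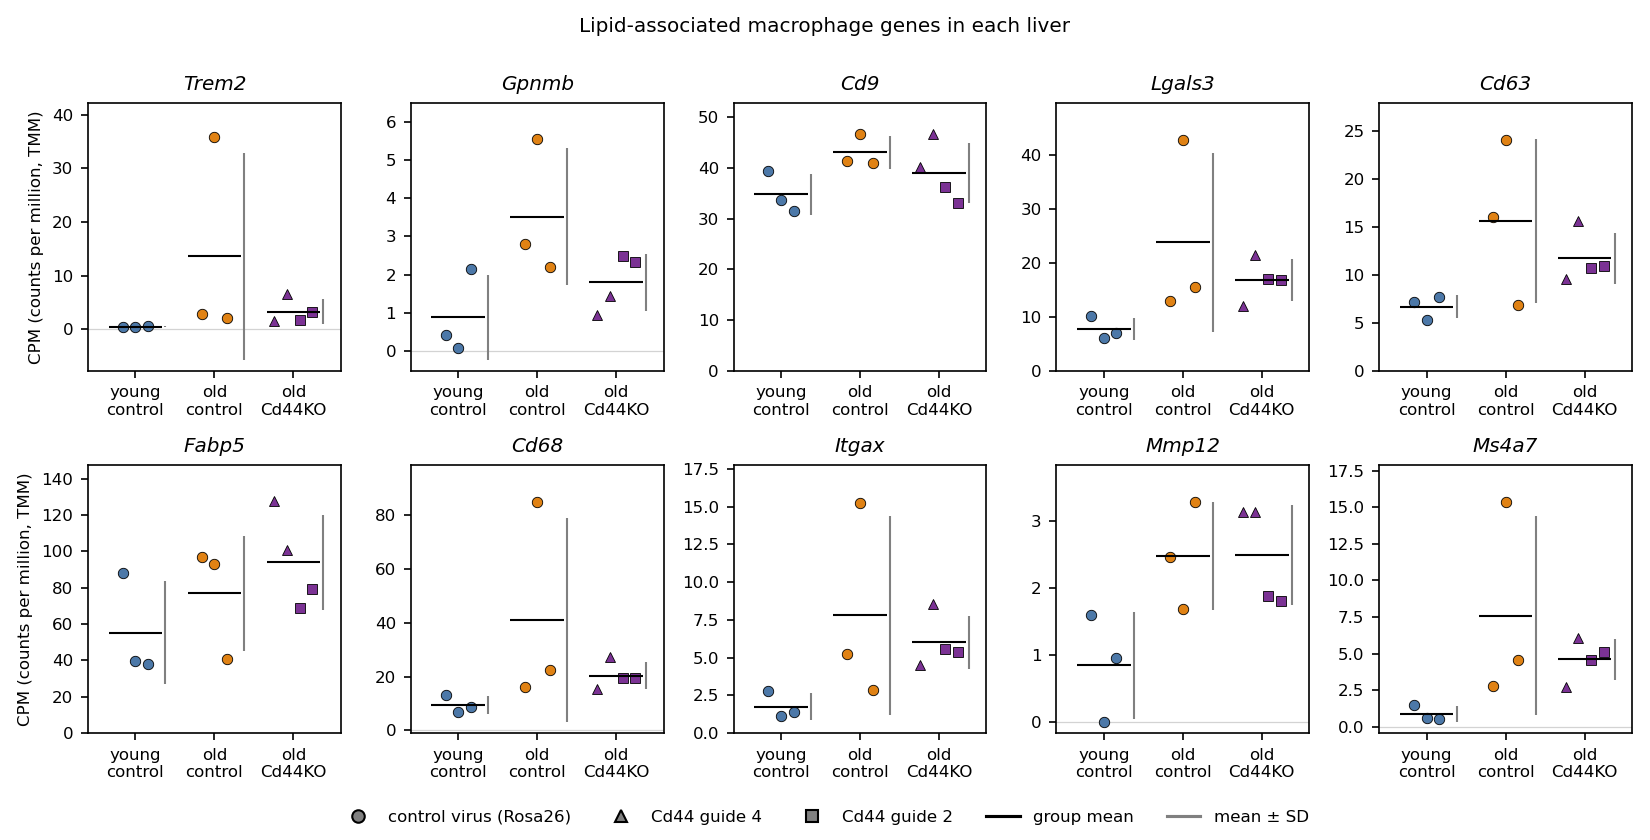
CPM (vertical axes, linear, scaled with TMM factors) of the 10 genes in each of the 10 livers, by group; symbols mark the virus, horizontal bars the group mean and vertical bars the mean ± SD. Old control replicate 2 is the highest point for 8 of the 10 genes, and Trem2 reaches 35.9 CPM there against at most 6.50 CPM in any other liver.

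Sequences before the start sites were searched on both strands for 7 short motifs linked to macrophage, lysosome or lipid regulation or to the start site, and for TGAGTCA, added after the matches were seen. The 250 bases before the start were taken from the RefSeq promoter table (GRCm38.p6), which matched 9 of the 10 genes and gave 11 promoters, since Mmp12 and Ms4a7 each have 2 starts. TGANTCA, letters that include the core bound by AP-1 factors, occurred in 5 of the 11 promoters, each of a different gene, against 6.75% of all 32851 promoters in the table. GAGGAA, which includes the GGAA core of the factor PU.1 and other ETS proteins, occurred in 4 of 11 (those of Trem2, Cd68, Cd63 and Mmp12), against 23.3% of promoters. The Trem2 promoter, which carries both near its start, is printed first, with the matches in capitals (TTCCTC is GAGGAA read on the other strand). The other windows with TGANTCA follow, with that match in capitals; those of Mmp12 and Ms4a7 lie before a second start inside the gene.

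Trem2, 250 bases before the start (chr17:48346151-48346400, plus strand): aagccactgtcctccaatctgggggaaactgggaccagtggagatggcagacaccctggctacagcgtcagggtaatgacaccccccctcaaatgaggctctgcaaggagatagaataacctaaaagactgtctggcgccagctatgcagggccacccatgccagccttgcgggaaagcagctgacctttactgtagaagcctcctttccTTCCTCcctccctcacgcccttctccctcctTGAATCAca
Cd68, farther match (chr11:69666293-69666339, minus strand): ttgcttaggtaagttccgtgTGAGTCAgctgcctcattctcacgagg
Cd68, nearer match (chr11:69666171-69666214, minus strand): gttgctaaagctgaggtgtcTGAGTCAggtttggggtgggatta
Itgax (chr7:128129474-128129520, plus strand): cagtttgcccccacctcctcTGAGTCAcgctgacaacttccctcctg
Mmp12, second start (chr9:7347310-7347356, plus strand): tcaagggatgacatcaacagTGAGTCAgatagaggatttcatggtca
Ms4a7, second start (chr19:11334750-11334796, minus strand): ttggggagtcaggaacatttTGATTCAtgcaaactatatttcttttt

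The match lay 9 bases before the start in Trem2, 24 and 149 in Cd68, 56 in Itgax, 44 in Mmp12 and 81 in Ms4a7. The exact letters TGAGTCA, the AP-1 core of which TGANTCA is the looser form, were found in 3 of the 11 promoters (of Cd68, Itgax and Mmp12), against 4.46% of promoters. The matches of Trem2 (TGAATCA) and Ms4a7 (TGATTCA) differ from that core in the middle letter. CATGTG occurred in 2 of 11 (of Cd9 and Mmp12), against 12.3%. CACGTG (6.02% of promoters), the direct repeat of AGGTCA with a gap of 4 bases (0.0152%), TTGCGCAA (0.164%) and TATAAA (12.4%) occurred in 0 of the 11 within these 250 bases. These matches describe the letters in the windows, and no binding was measured.

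Of the surface proteins, Ms4a7 (chromosome 19, 11321039 to 11336146), a four-span membrane protein of monocyte-derived macrophages, had the second largest difference with age after Trem2. It was at 1.47, 0.594 and 0.507 CPM in the young controls, 2.80, 15.4 and 4.58 in the old controls, and 2.73, 6.06, 4.57 and 5.14 in knockout replicates 1 to 4. Every old liver exceeded every young liver, and the lowest old liver was 1.86 times the highest young one. The old controls were 3.13 above the young controls on the log2 scale (SE 0.66), 2.09 without old control replicate 2 and 3.77 without young control replicate 1.

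Itgax (chromosome 7, 128129547 to 128150657) encodes CD11c, an integrin of dendritic cells and activated macrophages. Young controls held 2.75, 1.12 and 1.39 CPM, old controls 5.26, 15.3 and 2.86 CPM, and knockouts 4.53, 8.55, 5.56 and 5.37 CPM. Old and young livers were again separate, but only just, since old control replicate 3 was 1.04 times the highest young liver. The difference with age was 2.14 on the log2 scale (SE 0.57), and 1.2 without old control replicate 2.

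Gpnmb (chromosome 6, 49036546 to 49070929), a transmembrane glycoprotein of lysosome-rich macrophages, varied among the young livers. It was at 0.428, 0.066 and 2.15 CPM there, with 1 count in replicate 2, and at 2.80, 5.56 and 2.19 CPM in the old controls. The knockouts held 0.930, 1.44, 2.5 and 2.33 CPM. Old controls lay just above all young livers, whereas knockout replicates 1 and 2 lay below young replicate 3. The log2 difference with age was 1.98 (SE 0.75), 1.49 without old control replicate 2 and 3.77 without young control replicate 3.

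The tetraspanin Cd9 (chromosome 6, 125460266 to 125494791), a membrane organiser made by many cell types, differed least. Its levels were 39.3, 33.6 and 31.6 CPM in young controls, 41.3, 46.7 and 41.0 in old controls, and 40.2, 46.6, 36.2 and 33.0 in knockouts. The old controls lay just above the young ones, and the knockouts overlapped both groups. The log2 difference with age was 0.31 (SE 0.15).

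Cd68 and Cd63 belong to the lysosome and late endosome. Cd68 (macrosialin, chromosome 11, 69664213 to 69666153), the lysosomal membrane protein most used to stain macrophages, was at 13.2, 6.79 and 8.55 CPM in young controls, 16.1, 84.8 and 22.4 in old controls, and 15.5, 27.2, 19.5 and 19.4 in knockouts. Every old liver exceeded every young liver. Its log2 difference with age was 2.11 (SE 0.54), which became 1.01 without old control replicate 2. Cd63 (chromosome 10, 128900989 to 128912822), a tetraspanin of late endosomes, was at 7.16, 5.34 and 7.67 CPM in young controls, 16.0, 24.1 and 6.92 in old controls, and 9.65, 15.7, 10.8 and 10.9 in knockouts. All 4 knockouts lay above the young livers, while old control replicate 3 fell among them. The log2 difference with age was 1.22 (SE 0.37), and 0.77 without old control replicate 2.

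Lgals3 and Mmp12 encode secreted proteins. Lgals3 (galectin-3, a glycan-binding lectin, chromosome 14, 47367751 to 47386160) was at 10.1, 6.13 and 7.03 CPM in young controls, 13, 42.9 and 15.6 in old controls, and 12.0, 21.4, 17.0 and 16.9 in knockouts. Old and young livers did not overlap, and the log2 difference with age was 1.62 (SE 0.41), or 0.88 without old control replicate 2. Mmp12 (macrophage elastase, chromosome 9, 7344381 to 7369499) was at 1.59, 0 and 0.95 CPM in young controls, 2.46, 1.69 and 3.29 in old controls, and 3.14, 3.14, 1.88 and 1.81 in knockouts. It is one of the 2 genes in which old control replicate 2 was not the highest liver: here it was the lowest of the 7 old livers. The count of 0 in young replicate 2 allows a level up to the 3-count floor given above. The log2 difference with age was 1.53 (SE 0.69), and 1.74 without old control replicate 2. It was 2.35 without young control replicate 1 and fell to 0.95 without young control replicate 2, the liver with the count of 0. Exons of Mmp12 overlap those of Mmp1b on the opposite strand, which had 0 counts in all livers, and use of strand in the counting was not given in the sources used here. Exons of Cd9 overlap those of Gm26728, which the count table does not list, so the share of Cd9 reads that could stem from it is uncertain.

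Fabp5 (chromosome 3, 10012548 to 10016607), a carrier of fatty acids inside cells that keratinocytes and endothelial cells also make, followed the age groups poorly. It was at 87.9, 39.8 and 38 CPM in young controls, 96.8, 93.3 and 40.6 in old controls, and 127.8, 100.6, 68.6 and 79.1 in knockouts. Young replicate 1 lay above 3 of the 7 old livers. The log2 difference with age was 0.48 (SE 0.39), and 0.31 without old control replicate 2.

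Considered together, all 10 genes had a higher fitted level in old than in young controls, as did 52.4% of all genes tested. For 8 of them the old controls did not overlap the young controls, against 19.7% of all genes that were higher without overlap. Called at an edgeR adjusted p under 0.05 and higher were 6 of the 10, against 14.1% of all genes tested, and the choice of members fixes this count. Their median log2 difference was 1.80, beside 0.04 over all genes. Without old control replicate 2 it was 1.10 and 1 of the 10 was called, against 7.35% of genes in either direction. Without young control replicate 2, which was the lowest of all livers for 6 of the 10 genes, 0 were called, and without young control replicate 3, 2 were, when 396 and 1549 genes were called in all. The stricter pattern of every old liver above every young liver held for Trem2, Lgals3, Cd68, Itgax, Mmp12 and Ms4a7, 6 of the 10 genes, and for 13.4% of all genes tested.

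The 10 genes shared their extreme livers. Old control replicate 2 was the highest of the 7 old livers for 8 of them, against 17.5% of all genes, and was at least 2-fold above the median of the other 6 old livers for 7, against 6.44%. Among the knockouts, replicate 2 was the highest of the 4 livers for 8 of 10, against 24.2% of all genes. Its pan-macrophage sum of 993.9 CPM was also the highest among the knockouts.

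Per kilobase of merged exons, which allows levels of different genes to be compared, the order changed between groups. In young controls Cd9 (17.0 CPM per kb) and Fabp5 (15.5) led, followed by Cd68 (7.58), Lgals3 (4.17) and Cd63 (1.83), and Trem2 was the lowest of the 10 at 0.103 CPM per kb. In old controls Cd68 stood first at 32.7 CPM per kb, ahead of Fabp5 (21.6), Cd9 (21.1), Lgals3 (12.8) and Cd63 (4.26), while Trem2 was at 2.75, above Ms4a7 (1.70), Itgax (1.62), Gpnmb (0.540) and Mmp12 (0.343). In the knockouts Fabp5 (26.4), Cd9 (19.1) and Cd68 (16.2) led and Trem2 was at 0.658 CPM per kb. The spread over livers in the old controls was wide enough for neighbours in that order to exchange places, and the order in old controls rests on replicate 2. Without it Cd68 was at 15.3 CPM per kb, below Cd9 (20.1) and Fabp5 (19.3), and Trem2 at 0.5, below Itgax (0.845) and Ms4a7 (0.83).

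The genes were next set beside macrophage RNA in general, as the log2 CPM of each gene minus the mean log2 CPM of 14 pan-macrophage genes (among them Adgre1, Csf1r, Fcgr1, Aif1, Mertk, Laptm5, Lyz2, Fcer1g, Ctss, C1qa, C1qb and C1qc) in the same liver. That reference itself was at 4.11 ± 0.23 in young controls (SD, n = 3), 5.52 ± 0.75 in old controls (n = 3) and 5.02 ± 0.37 in knockouts (n = 4). Relative to it, Trem2 was at -5.28, -4.80 and -4.41 in young controls, -3.19, -1.11 and -4.40 in old controls, and -4.15, -2.81, -4.11 and -2.96 in knockouts. Every old liver thereby lay above every young one, but old control replicate 3 only just, at -4.396 against -4.409 in young control replicate 3. Ms4a7 was at -4.30 ± 0.51, -2.95 ± 0.54 and -2.83 ± 0.40 in the 3 groups, and every old liver was above every young one on this scale too.

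Gpnmb was at -4.86 ± 1.90, -3.77 ± 0.53 and -4.18 ± 0.75 relative to the reference in young controls, old controls and knockouts, and Mmp12 at -4.91 ± 2.01, -4.20 ± 1.08 and -3.69 ± 0.41, with overlap of old and young livers for both. Lgals3 was at -1.17 ± 0.16, -1.15 ± 0.35 and -0.96 ± 0.25 in the same order, and Cd68 was at -0.90 ± 0.28, -0.55 ± 0.60 and -0.69 ± 0.18. Itgax was at -3.31 ± 0.42, -2.88 ± 0.92 and -2.45 ± 0.14, with old control replicate 3 below every other liver and all 4 knockouts above the young livers. Cd9 was lower relative to macrophage RNA in every old liver than in every young one, at 1.01 ± 0.08, -0.09 ± 0.66 and 0.26 ± 0.23. The median over the 10 genes of the old control minus young control difference on this scale was 0.39. It was 0.09 without old control replicate 2, 0.06 without young control replicate 2, and 1.19 with the 8 Kupffer cell genes (the resident liver macrophages) as the reference instead.

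**Figure D2:**
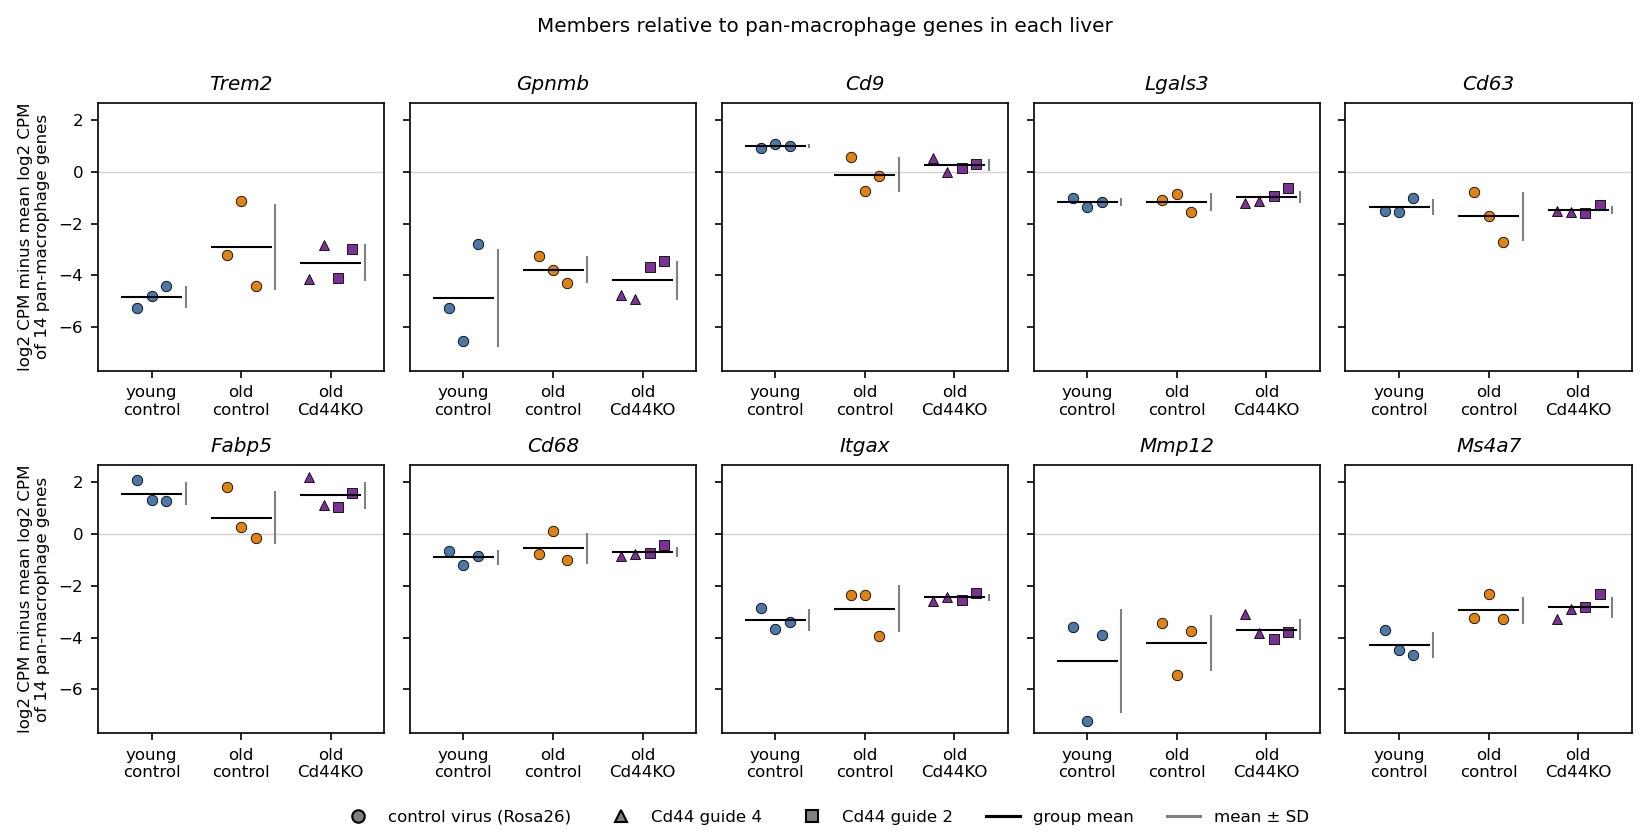
Log2 CPM of each gene minus the mean log2 CPM of 14 pan-macrophage genes in the same liver (vertical axis, shared), by group; bars give the mean and the mean ± SD. Ms4a7 sits higher in all 7 old livers than in the 3 young ones, Lgals3 stays near -1.17 to -0.96 in the group means, and Cd9 sits lower in all 7 old livers.

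Livers labelled Cd44 knockout were compared with old controls to see whether the hepatocyte edit moved these genes. The old controls are among the old livers for which the set was picked. The choice of members therefore bears on this comparison, its p-values and its counts. Counts of Trem2 were lower in the group mean, by a log2 fold change of -2.05 (SE 0.84, 95% interval -3.91 to -0.20, unadjusted p = 0.0328), which did not pass adjustment over all genes (edgeR adjusted p = 0.744). The livers overlapped: the old controls other than replicate 2 held 2.05 and 2.90 CPM, inside the knockouts' range of 1.45 to 6.50 CPM. Without old control replicate 2 the sign turned, to 0.40 (SE 0.53, edgeR adjusted p = 0.989).

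Of the 10 genes, 0 were called between knockouts and old controls in edgeR, against 0% of all genes tested. At an unadjusted p under 0.05 stood 1 of the 10, Trem2, against 6.59% of genes. DESeq2 called 8 genes in all and 0 of the 10, and gave no p for Trem2 in this or any other comparison. The next largest differences were Cd68 at -1.01 on the log2 scale (SE 0.47, 95% interval -2.05 to 0.03) and Gpnmb at -0.96 (SE 0.64, interval -2.37 to 0.44). Ms4a7 followed at -0.71 (SE 0.52), Lgals3 at -0.50 (SE 0.37), Cd63 at -0.41 (SE 0.33) and Itgax at -0.37 (SE 0.48), each with an interval that includes 0. Cd9 had the narrowest interval, -0.44 to 0.15 around -0.14, and Mmp12 was at 0.01 (interval -1.28 to 1.30). Fabp5 was the gene with the highest positive value, 0.29 (interval -0.51 to 1.09). In all, 2 of the 10 were above 0 and 8 below with every liver (median -0.46), against 45.6% of all genes above 0 (median -0.02). Without old control replicate 2, 7 of the 10 were above 0 (median 0.16): besides Trem2, the sign turned for Lgals3 (0.24), Cd63 (0.04), Cd68 (0.09), Itgax (0.57) and Ms4a7 (0.33), and Mmp12 turned to -0.20.

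**Figure D3:**
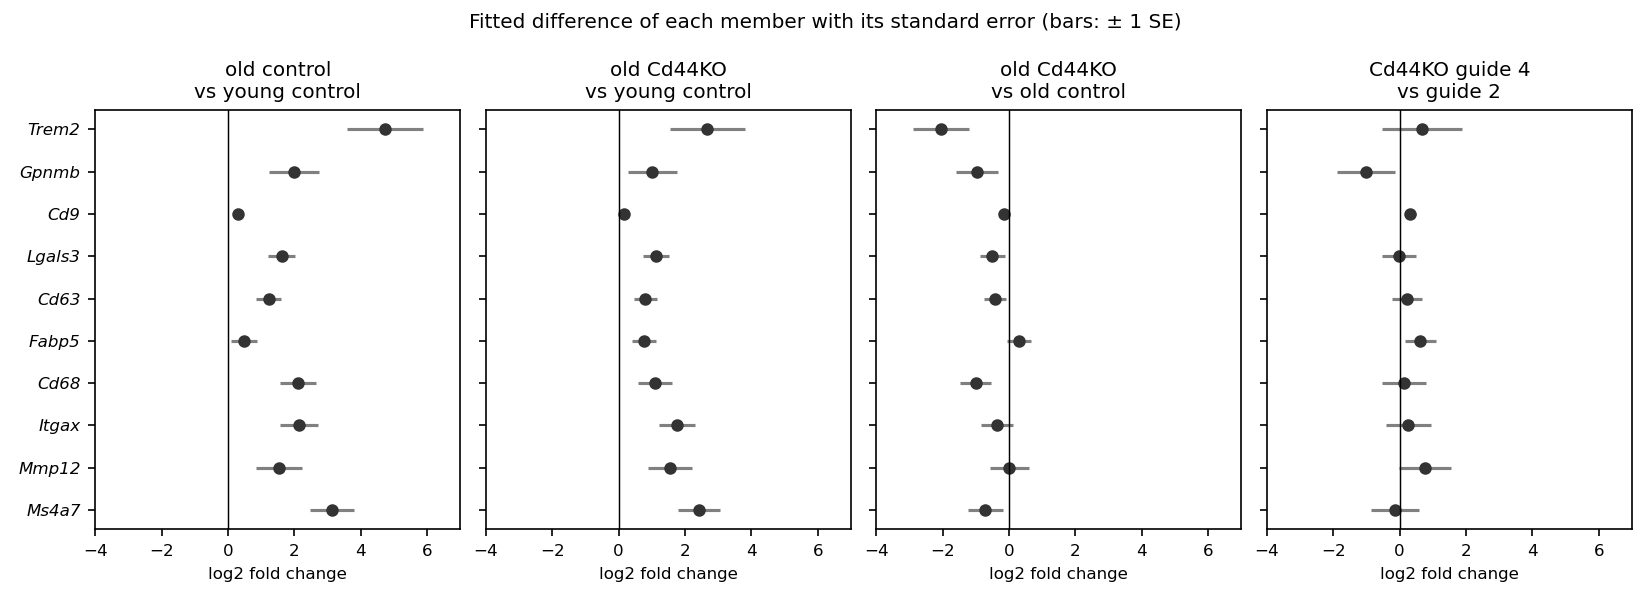
Fitted log2 fold change of each gene (horizontal axis; points) with ± 1 standard error (bars) in 4 comparisons. All 10 points lie right of 0 in both comparisons of old with young livers, and 8 of 10 lie left of 0 for knockout against old control, where 0 passed the test.

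Knockout livers were also set beside the young controls, a comparison that shares its young livers with the age comparison. All 10 genes were higher, against 52.2% of all genes, from 0.16 for Cd9 (SE 0.14) to 2.68 for Trem2 (SE 1.13) on the log2 scale, with a median of 1.11 beside 0.03 over all genes. Ms4a7 was at 2.42 (SE 0.63), Itgax at 1.77 (SE 0.55), Mmp12 at 1.54 (SE 0.66), Lgals3 at 1.12 (SE 0.39) and Cd68 at 1.10 (SE 0.51). Between knockouts and young controls 1 of the 10, Ms4a7, was called higher, against 6.64% of all genes, and 7 did not overlap, against 21.1%. Old knockouts are among the old livers for which the set was picked, so the choice of members bears on these counts too. The genes that did overlap were Gpnmb, Cd9 and Fabp5. Leaving out old control replicate 2, which enters this comparison only through the shared fit, raised the count called to 5, and leaving out old control replicate 1 or 3 raised it to 3. Genes called in either direction rose likewise, from 1614 to 1898, 2748 and 3281. The call was lost without any of the 3 young controls and without knockout replicate 2, 3 or 4.

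Within the knockouts, the 2 livers with guide 4 and the 2 with guide 2 were compared directly. Trem2 differed by 0.68 on the log2 scale (SE 1.2, 95% interval -1.99 to 3.35, edgeR adjusted p = 0.9996), with guide 4 livers at 1.45 and 6.50 CPM on both sides of the guide 2 livers at 1.79 and 3.27 CPM. No gene of the set was called (0 of 10, against 0.0216% of all genes, and 0 of 10 at an unadjusted p under 0.05 against 4.34%). DESeq2 also called 0 of the 10, without a p for Trem2. Gpnmb was the gene with the lowest value, at -1.01 (SE 0.87), and its guide 4 livers, at 0.930 and 1.44 CPM, lay below both guide 2 livers. Cd9 (0.33, SE 0.16), Fabp5 (0.63, SE 0.46) and Mmp12 (0.76, SE 0.78) lay higher in both guide 4 livers than in both guide 2 livers. Without overlap of the guides were thus 3 of 10 genes higher with guide 4 and 1 lower, against 18.1% and 20.4% of all genes. With 2 livers a guide the intervals are wide and do not show that the guides act alike.

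Most genes listed for TREM2 signalling were higher with age, and whether TREM2 signalling itself changed was not tested. Other lists of immune cells were higher too: pan-macrophage (median log2 difference 1.77), B and plasma cell (2.03), T and NK cell (2.30) and neutrophil genes (3.06). Without old control replicate 2 these medians were 1.27, 1.41, 0.90 and 1.32. Of 17 genes for signalling partners and ligands tested, 13 were called higher and 0 lower in old against young controls (median log2 difference 1.71), where 14.1% and 8.66% of all genes tested were. The largest were Plcg2 (2.5, SE 0.47), the phospholipase downstream of SYK, Hcst (2.31, SE 0.66), the DAP10 adaptor, Syk itself (2.01, SE 0.43), the lipid phosphatase gene Inpp5d (1.93, SE 0.33) and the exchange factor gene Vav1 (1.91, SE 0.46). Leaving out old control replicate 2, these were 1.70, 1.61, 1.44, 1.57 and 1.30, and Hcst and Vav1 were not called. The adaptor gene Tyrobp rose from 8.64 ± 2.76 CPM (SD, n = 3) in young controls to 31.8 ± 21.0 (n = 3) in old controls, a log2 difference of 1.88 (SE 0.42, edgeR adjusted p = 0.014), or 1.19 without old control replicate 2. Ligand genes did not follow: Apoe was at -0.27 (SE 0.17, adjusted p = 0.264) and Clu at -0.42 (SE 0.21), neither called, and hepatocytes are the main makers of Apoe in liver. The sheddase genes Adam10 (0.32) and Adam17 (0.28) were not called. The count called was 5 of 17 without old control replicate 2, and 8, 2 and 5 without young control replicates 1, 2 and 3 in turn.

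Lipid and lysosome genes moved in both directions. Of 27 tested, 7 were called higher and 2 lower with age (median 0.25). Those higher included Lpl (1.94), the lipoprotein lipase, Atp6v0d2 (1.79), a subunit of the lysosomal proton pump, the cathepsin gene Ctss (1.71), the cholesterol exporter gene Abcg1 (1.42) and the fatty acid carrier gene Fabp4 (0.96). Lower were Plin2 (-1.29), which coats lipid droplets, and Abca1 (-0.93), another cholesterol exporter, both of which hepatocytes also express. Without old control replicate 2, Lpl was at 1.22, and Atp6v0d2 (1.68), Fabp4 (0.55) and Plin2 (-1.22) were not called. In all, 4 were called without old control replicate 2, 1 without young control replicate 2, 6 without young control replicate 3 and 14 without old control replicate 3.

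Among 19 further genes reported in lipid-associated macrophages, 10 were called higher and 0 lower with age (median 1.37). These were led by Clec7a (2.82, SE 0.56), which encodes the glucan receptor dectin-1, Ccl3 (2.5, SE 0.75), a chemokine, Capg (2.35, SE 0.77), an actin-capping protein, the integrin gene Itgb2 (2.07, SE 0.49) and the receptor kinase gene Axl (1.95, SE 0.43). Spp1, which encodes osteopontin and is also a cholangiocyte gene, was at 0.66 (SE 0.32, edgeR adjusted p = 0.148). Without old control replicate 2 the 5 differences were 1.79, 1.35, 0.71, 1.67 and 1.13, and Ccl3, Capg and Itgb2 were not called. The count was 3 without old control replicate 2, 0 without young control replicate 2 and 5 without young control replicate 3.

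Lists of other macrophage genes were counted beside these. Of the 14 pan-macrophage genes 12 were called higher with age (median 1.77), 10 without old control replicate 2 and 2 without young control replicate 2. Of 8 Kupffer cell genes 4 were called higher and 1 lower (median 1.39), with 3 called without old control replicate 2, 3 without young control replicate 3 and 0 without young control replicate 2. Without old control replicate 2 the medians with age were 1.11 for signalling, 0.07 for lipid and lysosome and 0.85 for further lipid-associated genes. They were 1.27 for pan-macrophage and 0.59 for Kupffer cell genes. Between knockouts and old controls 0 genes of these 5 lists were called (smallest edgeR adjusted p 0.744). Their medians were -0.48 for signalling, -0.12 for lipid and lysosome genes, -0.53 for the further lipid-associated genes, -0.56 for pan-macrophage and -0.85 for Kupffer cell genes. The same medians without old control replicate 2 were -0.04, -0.02, 0.05, -0.07 and -0.52. Between knockouts and young controls 6.64% of all genes tested were called higher. Of the lists, 5 of 17 signalling genes were called higher (Plcg2, Syk, Blnk, Inpp5d and Lcp2), and so were 3 of 19 further lipid-associated genes (Clec7a, Cd52 and Pla2g7) and 6 of 14 pan-macrophage genes. These 3 counts were all 0 without young control replicate 2 or 3, and between 0 and 2 without young control replicate 1 or knockout replicate 2, 3 or 4. They were 7 to 10 without any of the 3 old controls. In the same comparison with every liver, 2 of 27 lipid and lysosome genes were called higher and 3 lower. Of 8 Kupffer cell genes 0 were called higher and 2 lower.

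**Figure D4:**
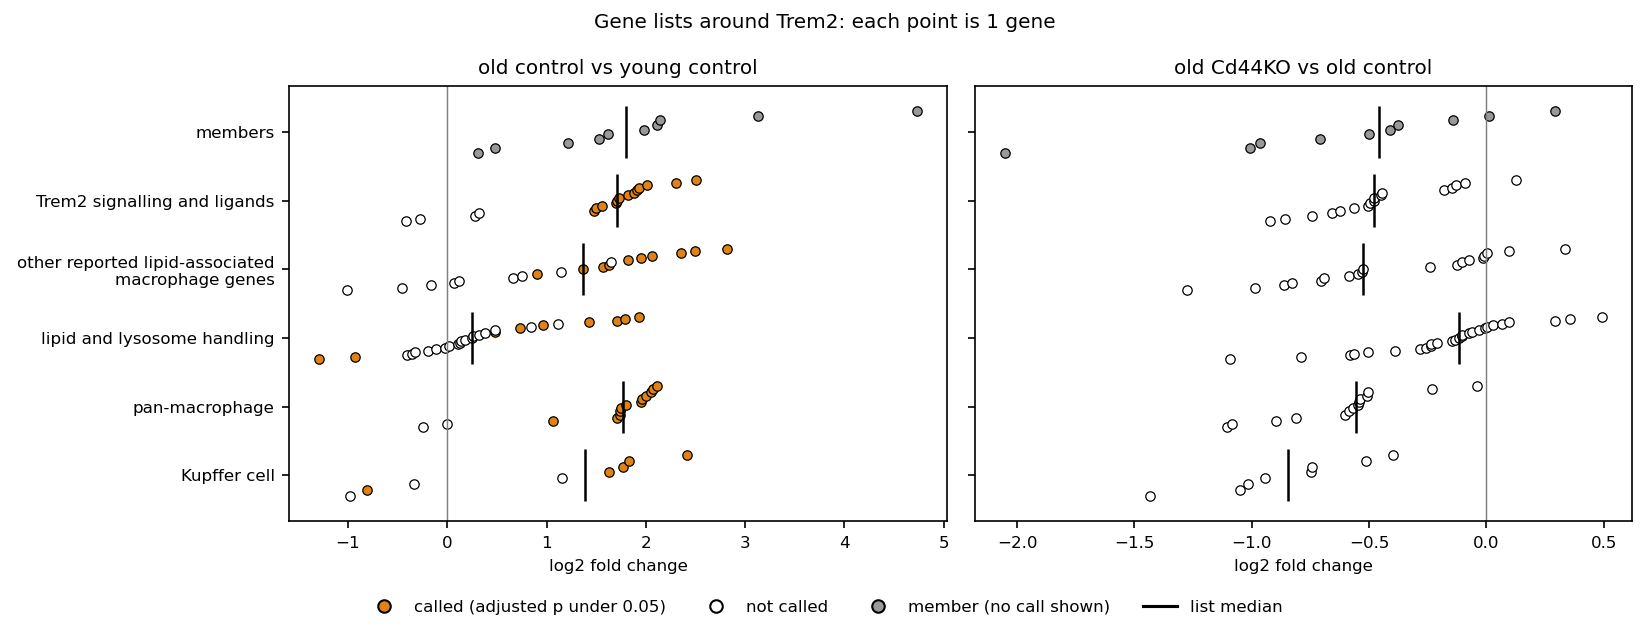
Log2 fold change (horizontal axes) of every tested gene in 6 lists; each point is 1 gene, filled orange where it was called and grey for the 10 genes of the set, and the bar is the list median. With age the signalling and pan-macrophage lists have medians of 1.71 and 1.77, close to the 1.80 of the set, and no point is called for knockout against old control.

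Several lists of markers of other cells moved with the set in several livers, and others did not. Summed neutrophil markers were at 7.41 to 16.2 CPM in young controls, with Camp and Ltf at 0 in all 3, and at 26.1 to 314.8 in old controls and 15.9 to 33.6 in knockouts. Summed platelet and megakaryocyte markers were at 9.36 to 11.3, 20.7 to 122.6 and 16.3 to 32.2 CPM, and T and NK cell markers at 3.61 to 4.75, 4.72 to 54.8 and 11.8 to 29.0 CPM, with old control replicate 2 the highest each time. Monocyte markers were at 18.2 to 28.8 CPM in young controls, 43.0 to 125 in old controls and 42.4 to 64.8 in knockouts, without overlap of old and young livers. Dendritic cell markers were at 6.79 to 8.38, 6.58 to 25.1 and 11.6 to 18.8 CPM, and 1 of 8 was called higher with age. Their lowest sum was in old control replicate 3, which also had the lowest Itgax of the old livers. That match in 1 liver was picked after the values were seen. Summed stellate cell markers were at 152.9 to 241.3, 313.5 to 454.3 and 261.3 to 309.7 CPM, and 6 of 8 were called higher with age. Sinusoidal endothelium markers were at 177.2 to 232.5, 329.3 to 366.9 and 232.1 to 283.6 CPM, again with 6 of 8 called higher, and the old controls overlapped the young controls in neither list. The summed B and plasma cell markers were lower in old livers, at 488.3 to 760.8, 223.4 to 392.5 and 221.3 to 348.0 CPM, although 4 of 7 were called higher and 1, Xbp1, lower. Without old control replicate 2, 3 of 8 stellate and 5 of 8 endothelium markers were called higher. Of the 7 B and plasma cell markers 1 was then called higher and 0 lower. Sums of erythroid markers overlapped between young controls (1138 to 1222 CPM) and old controls (869.4 to 1760). So did cholangiocyte markers (49.4 to 106.6 and 94.1 to 134.4), of which 0 of 6 were called with age. Hepatocyte markers were at 103400 to 130900 and 89750 to 108700 CPM. Of these 8, 3 were called lower with age, and 0 without old control replicate 2. The part of all these markers in the differences of the 10 genes was not tested.

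Over the 10 livers, the genes whose log2 CPM followed Trem2 most closely among 12694 genes with a mean of at least 1 CPM were Tmem173 (Pearson r = 0.988), which encodes the DNA-sensing adaptor STING, Spire1 (0.980), Ppp1r9b (0.978), Pf4 (0.976), a platelet chemokine, and Clec10a (0.975), a lectin of macrophages and dendritic cells, followed by Kctd12b, Clic1, Fuca2, Adprh and Nrros. Of the set itself, Lgals3 (0.943) and Cd68 (0.941) came closest, then Cd63 (0.903), Itgax (0.901), Ms4a7 (0.892), Gpnmb (0.714), Cd9 (0.682), Fabp5 (0.453) and Mmp12 (0.435). These values describe 10 livers that share the age difference and the extreme level in old control replicate 2: Pf4 was at 50.6 CPM there and at most 7.90 CPM elsewhere.

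Over the 7 old livers the closest genes were Cotl1 (0.995), Fam105a (0.992), Rassf2 (0.991), Emp3, Spire1, Clec10a, F630028O10Rik, Kctd12b, Slc2a3 and Card9, and of the set Lgals3 stood at 0.949, Cd68 at 0.948, Ms4a7 at 0.910, Itgax at 0.900, Cd63 at 0.841, Gpnmb at 0.689, Cd9 at 0.607, Fabp5 at 0.208 and Mmp12 at -0.457. Over the 6 old livers other than old control replicate 2, the genes of the set dropped to 0.736 for Lgals3, 0.704 for Itgax, 0.686 for Cd68, 0.658 for Cd63, 0.614 for Ms4a7, 0.410 for Cd9, 0.167 for Fabp5, 0.089 for Gpnmb and 0.060 for Mmp12. Fabp5 and Mmp12 were thus the lowest of the set over all 7 old livers, and Gpnmb joined them over these 6.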

How the data were processed

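RNA of 10 whole livers was measured by poly(A) RNA sequencing, per the labels' protocols (Watchmaker mRNA kit, paired reads on an Element AVITI). The authors deposited 1 table of raw counts per gene symbol, unnormalized, with 1 column per liver. Per the submitters' processing notes, FastQC 0.11.8, Trim Galore 0.4.4, STAR 2.5.3a, HOMER and the build mm10 were used; counting settings, annotation and strand are not given in the sources used here. The members and the gene lists were chosen with earlier results of these data known.

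From the counts, edgeR 4.0.16 (R 4.3.3) was used with TMM factors (0.8235 to 1.116) and filterByExpr (minimum count 10, minimum total 15), which left 13909 genes. The quasi-likelihood test was fitted over all 10 livers with 1 coefficient per group, and guides 4 and 2 were separate in their own comparison. P-values were adjusted by Benjamini-Hochberg over all genes tested, and a call is an adjusted p under 0.05. SEs derive from the F statistic and 95% intervals from its degrees of freedom. CPM use TMM, and log2 CPM a prior count of 2. Alternatives were RLE factors, DESeq2 1.42.0, limma voom 3.58.1, no filter, only the groups compared, each liver left out in turn and, chosen after seeing the data, total-count scaling and old control replicate 2 left out of means. Counts of livers within a group differed by far more than sampling noise (chi-square per degree of freedom at least 21.7), so each was counted as 1 sample. The count of 0 and its floor of 3 counts cover counting error only. Gene positions and exon lengths are from GENCODE M21 (GRCm38), promoters from RefSeq (GRCm38.p6). All 10 members are named; from each list, up to 5 called genes in each direction with the largest change, and otherwise Tyrobp, Syk, Apoe and Spp1. Clu, Adam10, Adam17 and Tyrobp's values, and genes singled out by a liver, were named after their values were seen. The pan-macrophage list holds 1 gene that enters the list's counts and means but whose own result is not reported here.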

Additional observations from a re-analysis of the deposited data

Results flagged for a closer look

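None of the 10 genes had a liver far from the other 3 among the 4 knockout livers, the one group large enough to be examined this way. Among the other named or listed genes 7 of 104 results examined did, where chance gives about 5.2. The gap of the highest liver to the next, as a share of the group's range, was 0.864 for Tyrobp, 0.862 for Vav1, 0.926 for Capg, 0.940 for Pla2g7, 0.841 for Mertk and 0.844 for Fcer1g, each highest in knockout replicate 2, and 0.947 for Ctsd, highest in knockout replicate 3. Knockout replicate 2 is also the knockout liver with the highest Trem2, at 6.50 CPM.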

How the results depend on the processing

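The fitted differences of the 10 genes with age and between knockouts and young controls kept their positive sign in all 159 alternative values each. Calls moved more: the members called with age, 6, became 2 with limma voom and 2 with only the groups compared, and ranged from 0 (without young control replicate 2) to 7 over the left-out livers. Genes called with age, 3172, were 1192 with only the groups compared and 396 to 5327 over the left-out livers. Between knockouts and young controls the members called, 1, became 3 (DESeq2), 0 (limma voom), 4 (total-count scaling) and 6 (only the groups compared), with 0 to 5 over the left-out livers; genes called, 1614, became 2803, 969, 3585 and 4223 under the same settings, with 56 to 3281 over the left-out livers. For knockout against old control, 0 genes became 8 with DESeq2 and 0 to 3 over the left-out livers, and 0 members were called under each setting. Between guides, 3 genes became 73 (DESeq2), 10 (no filter) and 31 (only the groups compared), with 0 to 8 over the left-out livers. The cause of these shifts was not tested. Where a liver was left out of a guide arm, the lone liver was assumed to vary like the other groups. In these last comparisons no member was called and signs turned in 10 and 8 of 159 values. They turned without old control replicate 2 as given in the report, for Fabp5 (-0.01) without old control replicate 3, and for Mmp12 without knockout replicate 1 (-0.12) or 2 (-0.12). Between guides, Trem2 (-0.79), Cd63 (-0.17), Cd68 (-0.33) and Itgax (-0.27) turned without knockout replicate 2, Lgals3 (0.34) and Ms4a7 (0.32) without knockout replicate 1, and Lgals3 also under total-count scaling (0.0085) and with only the groups compared (0.0003). Total-count scaling moved the median of all genes to 0.34 with age and 0.35 for knockout against young, from 0.04 and 0.03, and the share of calls that were higher from 62% to 91.6% and from 57.2% to 92.9%; all 10 members stayed above that median. The member level relative to macrophage RNA, 0.39, was 1.19 with the Kupffer cell list as reference and ranged from 0.06 to 0.57 over the left-out livers. Members with TATAAA went from 0 to 1 (Mmp12) when 50 bases after the start were included. Depth limits Trem2, Gpnmb, Mmp12 and Ms4a7 in young livers, at 0 to 34 counts. No paired analysis was possible because replicate numbers were given in record order and pair no livers.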
